A study of Mus musculus with 33 samples.

Results

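Peak lists of chromatin immunoprecipitation followed by sequencing (ChIP-seq) were compared between unstressed HSF1-/- MEFs (mouse embryonic fibroblasts, connective tissue cells cultured from embryos) and unstressed wild type MEFs. The question was which wild type peaks, for each antibody and for both together, are absent from the knockout lists, and at which genes they lie. The members were all peaks of the 4 unstressed lists for the antibodies that the labels call CS and MM, 11612 of the 45536 CS and MM peaks of the series. They comprised 7813 CS and 3170 MM peaks in HSF1-/- cells, and 180 CS and 449 MM peaks in wild type cells. Both genotypes had the strain background 129Sv.BALB/c and were taken before heat shock.

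The CS antibody is Cell Signaling antibody 4356, and the MM antibody was a gift of the Morimoto laboratory. The labels do not name their target, while the file headers call the experiment an Hsf1 ChIP-seq. There was 1 list per genotype and antibody, so no value has a replicate error and no test compared the genotypes. The series has 33 samples, 15 of them with a peak list; its nascent RNA libraries and its lists for the factor SRF were not analysed here. A peak list does not measure RNA. The loss of HSF1 in the knockout and the fibroblast identity of the cells therefore could not be checked. At a wild type region found by both antibodies lay 0 of 12 fibroblast marker genes and 0 of 24 markers of other cell types. Over all protein-coding genes that share was 0.199%, so the marker genes are too few to tell a difference.

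HSF1 is the main transcription factor of the heat shock response. It is known to form trimers in stressed cells and to bind heat shock elements, runs of the unit GAA and its reverse complement TTC in alternating orientation, in promoters of chaperone genes. Chaperones hold and fold other proteins, and cochaperones guide the Hsp70 and Hsp90 machines. Some HSF1 is also known to occupy DNA in cells that are not stressed.

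A shared region is a place where CS and MM peaks of one genotype overlap, and its summit is the midpoint between the CS and MM summits. A region or peak is called absent from the knockout when no peak of the knockout lists overlaps it by 1 bp or more. That is a statement about called peaks only, since the knockout lists were called from fewer tags and without a control library.

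Before the values, the promoter stretches that hold heat shock elements under the wild type regions are shown, because they let the peaks be read beside the DNA beneath them. They come from RefSeq promoters (GRCm38.p6, the primary assembly of mm10) and are written 5′ to 3′ on the strand of the gene. Capitals mark each match to the 2-unit motif GAANNTTC or TTCNNGAA. The Hspd1 stretch (chr1:55088038-55088097, minus strand) lies in a wild type region that also overlapped a knockout peak.
Hspd1: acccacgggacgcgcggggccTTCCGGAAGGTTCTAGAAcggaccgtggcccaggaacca
The other stretches lie in wild type regions with no knockout peak. They are those of Hsph1 (chr5:149636286-149636375, minus strand), Chordc1 (chr9:18292207-18292296, plus strand), Hnrnpa2b1 (chr6:51469865-51469954, minus strand) and Ccnd3 (chr17:47593262-47593321, plus strand), which hold the longer 3-unit motif described further on. The stretches of Dnaja1 (chr4:40722318-40722377, plus strand), Fkbp4 (chr6:128438772-128438831, minus strand) and Adgra3 (chr5:50059112-50059171, minus strand) hold the 2-unit motif alone.
Hsph1: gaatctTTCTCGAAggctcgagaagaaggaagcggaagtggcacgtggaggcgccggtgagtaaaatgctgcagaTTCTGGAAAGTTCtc
Chordc1: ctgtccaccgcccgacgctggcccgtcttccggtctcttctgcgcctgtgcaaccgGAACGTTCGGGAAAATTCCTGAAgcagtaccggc
Hnrnpa2b1: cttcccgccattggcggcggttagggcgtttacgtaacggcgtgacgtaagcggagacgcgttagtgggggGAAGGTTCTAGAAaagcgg
Ccnd3: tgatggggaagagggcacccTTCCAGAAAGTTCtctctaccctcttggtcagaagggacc
Dnaja1: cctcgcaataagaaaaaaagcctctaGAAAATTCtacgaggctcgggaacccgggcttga
Fkbp4: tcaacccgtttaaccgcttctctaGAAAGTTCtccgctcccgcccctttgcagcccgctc
Adgra3: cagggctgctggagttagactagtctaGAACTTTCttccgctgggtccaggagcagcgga

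The lists of the genotypes differed in depth, in how they were called and in the kind of peak they hold. After removal of duplicate tags the knockout libraries kept 9.95 M (megatags) CS and 12.1 M MM tags, against 25.2 M CS and 15.9 M MM tags in wild type. Knockout peaks had a median of 5 tags (CS) and 7 tags (MM), against 47.5 tags (CS) and 15 tags (MM) for wild type peaks. Peaks of 7 tags or fewer made up 86.2% of the knockout CS list and 60.9% of the knockout MM list, against 0% and 10% of the wild type CS and MM lists. The median peak was 107 bp (CS) and 100 bp (MM) long in the knockout, against 400 bp (CS) and 195 bp (MM) in wild type. The false discovery rate that the authors' peak caller gave, available for wild type only, ran from 39.5% to 100% in the CS list and was 100% for 351 of the 449 MM peaks. Peak numbers and tags are therefore not on one scale between genotypes, and tags, folds and p-values are the authors' values for each peak, used within its own list.

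**Figure D1:**
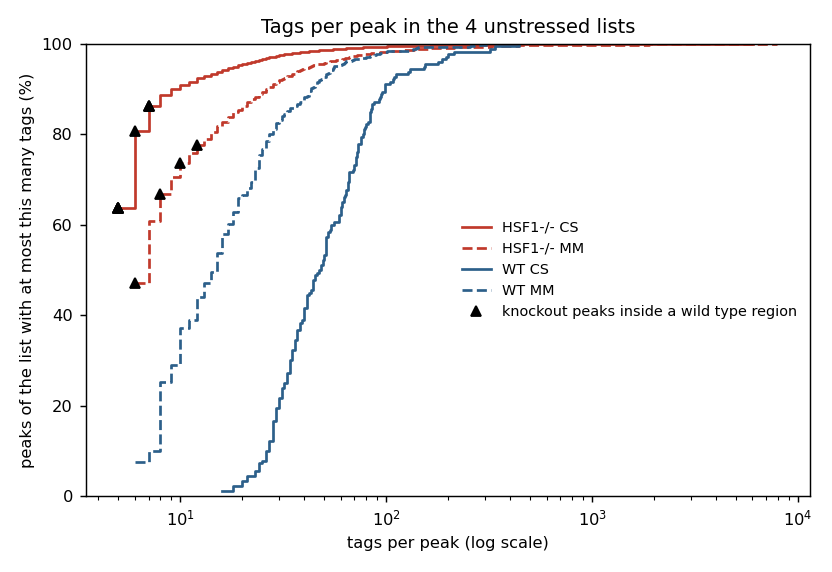
Share of each unstressed list (vertical axis, %) with at most the number of tags on the horizontal axis (log scale). The lists are CS (solid) and MM (dashed) of HSF1-/- (red) and wild type (blue). Black triangles mark, on the curve of their own list, the knockout peaks that overlap a wild type shared region. The triangles sit between 5 and 12 tags, and 86.2% of the knockout CS list lies at 7 tags or fewer.

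Most wild type peaks had no called counterpart in the knockout lists. Of the 180 wild type CS peaks, 171 (95%, exact Clopper-Pearson 95% interval 90.7% to 97.7%) overlapped no knockout CS peak. Of the 449 wild type MM peaks, 437 (97.3%, 95.4% to 98.6%) overlapped no knockout MM peak. Against the knockout peaks of either antibody, 167 CS peaks (92.8%, 88.0% to 96.1%) and 423 MM peaks (94.2%, 91.6% to 96.2%) were absent. These and all later intervals cover counting error only. Lists of 1 genotype also missed each other: 87.2% of knockout CS peaks overlapped no knockout MM peak, and 67.6% the other way. In wild type these shares were 32.8% of CS and 73.1% of MM peaks. The knockout lists covered 895 kb (CS) and 385 kb (MM). No share expected for unrelated intervals was computed.

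Both antibodies found 121 shared regions in wild type cells, and 109 of them (90.1%, 83.3% to 94.8%) were absent from both knockout lists. The other 12 (9.92%, 5.23% to 16.7%) overlapped 13 knockout peaks, of which 9 were CS peaks in 8 regions and 4 were MM peaks in 4 regions. No wild type shared region overlapped a region that both antibodies found in the knockout (0 of 121, which allows a share of up to 3.00%). With knockout peaks after heat shock counted as well, 100 of the 121 regions had no knockout peak at any of the 3 times.

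The overlapping regions lay within the range of wild type tags of the absent ones. The median CS tag number was 65 in the 12 overlapping regions and 60 in the 109 absent regions, and the median MM tag number was 37.5 and 27. The strongest absent region, with 439 CS and 305 MM tags, exceeded the strongest overlapping region, with 319 CS and 266 MM tags. The nearest unstressed knockout peak lay 0.085 to 1470 kb from an absent region, with a median of 51.1 kb, and 5 absent regions had one within 1 kb.

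**Figure D2:**
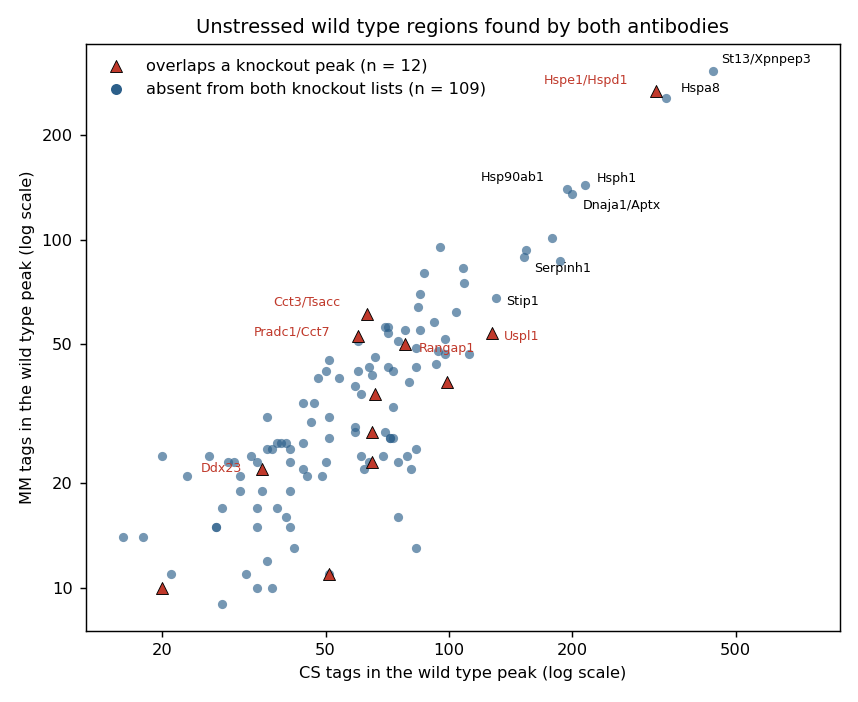
CS tags (horizontal axis, log scale) and MM tags (vertical axis, log scale) of the wild type peaks in each of the 121 shared regions; red triangles are the 12 regions that overlap a knockout peak and blue circles the 109 that do not, with genes named for overlapping regions at a gene end and for absent ones of 120 or more CS tags. The triangles are spread over the range of the circles, and the region with the most tags in both lists, at St13 and Xpnpep3, had no knockout peak.

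Of the 109 absent regions, 29 had a summit within 1 kb of an annotated end or transcript start of a protein-coding gene, and 34 genes met that limit, some of them as neighbours at the same region. That is 0.157% of the 21631 protein-coding genes considered. Of the 34 genes, 12 belonged to the chaperone lists of 105 genes (11.4%, 6.05% to 19.1%), 1 to the ubiquitin list, and 21 to no list. The lists were chosen with HSF1 targets in mind and with results of these data known, so the share is a description.

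Among the Hsp70 and Hsp110 chaperones, 2 of 9 genes lay at an absent region. Hspa8, the constitutive cytosolic Hsp70, had no knockout peak in its region (chr9:40800698-40801597), against 338 CS and 255 MM tags in the wild type peaks. Hsph1, an Hsp110 that exchanges nucleotide on Hsp70, had no knockout peak at chr5:149635995-149636843, against 214 CS and 143 MM tags in wild type. The nearest knockout peak to the Hspa8 region was a CS peak of 5 tags 762 bp away. The stress-inducible Hsp70 gene Hspa1b had a knockout MM peak of 6 tags within 1 kb and no unstressed wild type peak.

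Both Hsp90 genes of the list were at absent regions. Hsp90aa1, the stress-inducible cytosolic Hsp90, had no knockout peak at chr12:110696124-110696599, against 87 CS and 80 MM tags in wild type. Hsp90ab1, the constitutive cytosolic Hsp90, had 3 neighbouring wild type regions, all without an unstressed knockout peak. The strongest of them (chr17:45573628-45574184) held 194 CS and 140 MM tags in wild type, the one at chr17:45572370-45572922 held 85 and 70, and the one at chr17:45572961-45573603 held 73 and 42. A knockout CS peak of 8 tags appeared in the strongest of these regions at 60 min of heat shock.

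Cochaperones formed the longest group, with 4 of 16 Hsp90 cochaperones, 1 of 13 J-domain proteins and 1 of 10 Hsp70 regulators. St13, the Hsp70-interacting protein Hip, shared with Xpnpep3 the region with the most tags in both wild type lists (chr15:81399483-81400292; 439 CS and 305 MM tags) and had no knockout peak there. Dnaja1, a J-domain protein that stimulates Hsp70, had no knockout peak at chr4:40721958-40722896, against 199 CS and 135 MM tags in wild type. Stip1, the Hop protein that links Hsp70 to Hsp90, had none at chr19:7039693-7040505, against 130 CS and 68 MM tags. The knockout lists were thus empty at each of these 3 regions. Fkbp4, a peptidyl-prolyl isomerase that binds Hsp90, had no knockout peak at chr6:128438451-128439197, against 112 CS and 47 MM tags in wild type. Chordc1, an Hsp90-binding protein, had none at chr9:18292049-18292524, against 84 CS and 64 MM tags. Ahsa1, which activates the ATPase of Hsp90, was the weakest of the group, with no knockout peak at chr12:87266580-87266926 against 36 CS and 12 MM tags in wild type.

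Folding genes of other compartments and complexes were fewer. Cct4, a subunit of the cytosolic chaperonin TRiC, had no knockout peak at chr11:22990402-22990917, against 64 CS and 43 MM tags in wild type. Serpinh1, the collagen chaperone Hsp47 of the endoplasmic reticulum, had none at chr7:99352849-99353484, against 152 CS and 89 MM tags, and was the single one of 20 endoplasmic reticulum genes at such a region. Ubb, a polyubiquitin gene, had none at chr11:62551085-62551570, against 69 CS and 24 MM tags, and was the single one of 17 genes of the ubiquitin list. None of the 8 small heat shock protein, 6 prefoldin, 6 heat shock factor, 23 immediate early, 22 actin cytoskeleton, 15 metal and redox stress or 21 ribosomal protein genes lay at a wild type shared region. Over all protein-coding genes the share at such a region was 0.199%, so these lists are too small to tell a difference.

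The 21 genes outside the lists had varied roles, and several shared their region with a listed neighbour, among them Xpnpep3 (with St13), Aptx (with Dnaja1) and Vipas39 (with Ahsa1). The position of a region at a gene end does not say which gene it belongs to: the promoter start of Aptx lay 19169 bp and that of Acot7 7619 bp from the summit. Of the regions with no listed gene, that of Abcc5, an ABC transporter, had no knockout peak, against 109 CS and 75 MM tags in wild type. The region of Trim65 and Mrpl38 had none, against 95 CS and 95 MM tags, although a knockout CS peak of 5 tags appeared there at 60 min. Rsrp1 had none, against 85 CS and 55 MM tags. Further regions without a knockout peak lay at Adgra3, an adhesion receptor (78 CS and 55 MM tags in wild type), at Acot7, an acyl-CoA thioesterase (75 and 51), and at Slc35e2 (71 and 56). Next came Ccdc117 (70 and 56), Mat2a, which makes S-adenosylmethionine (65 and 41), and Dynll1, a dynein light chain (60 and 51). Fewer tags were found at Azi2 and Zcwpw2 (51 and 45), Ears2 and Ubfd1 (41 and 25) and Ints2, an Integrator subunit (18 and 14). At Hnrnpa2b1, an RNA-binding protein, and its neighbour Cbx3 the wild type peaks had 71 CS and 54 MM tags, and a knockout MM peak of 6 tags lay 85 bp outside the region. The Ccnd3 region, at the gene of cyclin D3, held 61 CS and 36 MM tags in wild type and no knockout peak.

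**Figure D3:**
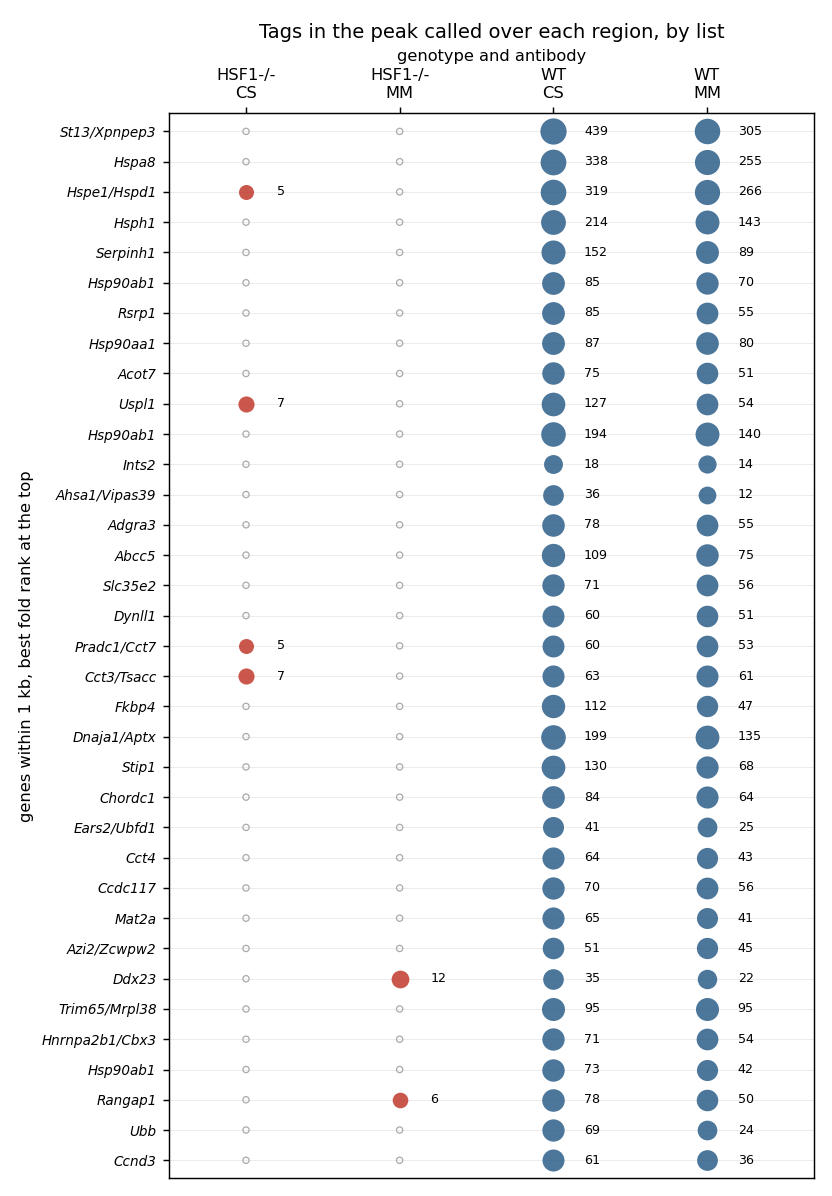
Tags of the peak called over each of the 35 wild type shared regions at a gene end (rows, best mean fold rank at the top). The CS and MM lists are those of HSF1-/- (red, left) and wild type (blue, right). Dots are sized by log2 tags with the tag number beside them, and open grey circles mean no called peak. Where 2 knockout peaks overlapped a region the larger is shown. Knockout dots appear in 6 rows, with 5 to 12 tags, and the rows of Hspa8, Hsph1 and both Hsp90 genes have none.

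The 6 gene-end regions that did overlap a knockout peak held 9 genes, and with them 43 genes (0.199% of all) lay at a wild type shared region. Hspd1 and Hspe1, the mitochondrial chaperonin Hsp60 and its partner Hsp10, share a region at their transcript starts (chr1:55087636-55088401). It held a knockout CS peak of 5 tags, against 319 CS and 266 MM tags in wild type. The region of Cct3, a TRiC subunit, and Tsacc (chr3:88296961-88297408) held a knockout CS peak of 7 tags, against 63 CS and 61 MM tags in wild type. The region of Cct7, also a TRiC subunit, and Pradc1 (chr6:85451721-85452359) held a knockout CS peak of 5 tags, against 60 CS and 53 MM tags. These chaperonin genes were the 4 of the 105 chaperone genes at overlapping regions. Uspl1, a SUMO isopeptidase, had knockout CS peaks of 5 and 7 tags at chr5:149184045-149184729, against 127 CS and 54 MM tags in wild type. Rangap1, the GTPase activator of Ran, had a knockout MM peak of 6 tags at chr15:81729770-81730345, against 78 CS and 50 MM tags. Ddx23, a helicase of the spliceosome, had a knockout MM peak of 12 tags at chr15:98662792-98663245, against 35 CS and 22 MM tags in wild type, and this was the knockout peak with the most tags in any of the regions.

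The remaining 6 overlapping regions lay away from gene ends. Those inside Lrrk1 and Prkab2 held knockout CS peaks of 7 and 5 tags, against 99 CS and 39 MM tags (Lrrk1) and 51 CS and 11 MM tags (Prkab2) in wild type. Those whose nearest genes were Klf14 and Irf2bp2 held knockout CS peaks of 5 and 6 tags, and those nearest to Ptpdc1 and Mvb12b held knockout MM peaks of 8 and 10 tags.

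The knockout peaks that overlapped wild type regions had few tags, as did most peaks of their lists. All 13 had between 5 and 12 tags, with a median of 6 and a median length of 116 bp. Among them 6 stood at the lowest tag number of their list, beside 63.7% of the CS list and 47.2% of the MM list. A further count, of 7 tags or fewer, was 10 of the 13, beside 86.2% (CS) and 60.9% (MM). These counts do not set the 13 apart from their lists. None of the 13 had a p of 1e-10 or less, beside 667 knockout CS peaks (8.54%) and 773 knockout MM peaks (24.4%). At these shares 13 peaks are too few to tell a difference. Their summits lay 0 to 351 bp from the wild type summit, with a median of 107 bp. They overlapped the regions by at least 23 bp, and some reached past a region's edge. At 12 or 60 min of heat shock a knockout peak was called in 4 of the 12 overlapping regions (33.3%, 9.92% to 65.1%). The same held for 9 of the 109 absent ones (8.26%, 3.85% to 15.1%). Of the unstressed knockout peaks of 7 tags or fewer, 6.43% (CS) and 14.5% (MM) overlapped a later knockout peak. For those with a p of 1e-10 or less the shares were 98.7% (CS) and 99% (MM). The shares of regions and of peaks are not on one scale. The regions had a median length of 466.5 bp (overlapping) and 439 bp (absent), and the knockout peaks were shorter.

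Knockout peaks of a single antibody were called at 13 chaperone genes, of which Hspd1, Hspe1, Cct3 and Cct7 are those of the overlapping regions described above. The other 9 genes, Hspa1b, Bag1, Bag6, Ptges3, Ttc4, Dnajc2, Cct2, Cct8 and Creld2, lay at no wild type shared region. Of the 105 chaperone genes, 9 (8.57%, beside 4.14% of all protein-coding genes) had a knockout CS peak within 1 kb and 4 (3.81%, beside 2.39%) a knockout MM peak, against 16 (15.2%, beside 0.213%) with a wild type CS peak and 27 (25.7%, beside 0.804%) with a wild type MM peak. All of these knockout peaks had 5 to 7 tags. A knockout shared region lay at none of the 105 genes, beside 0.176% of all protein-coding genes.

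Of the absent regions, 32 lay inside a gene and 48 outside protein-coding genes, and these included the best-ranked regions by fold. The region inside Aldh3b1, an aldehyde dehydrogenase (chr19:3926143-3926711), had no knockout peak, against 178 CS tags at 74.6-fold and 101 MM tags at 51.0-fold enrichment in wild type. The region nearest to Knstrn, 4.75 kb away (chr2:118841743-118842196), had none, against 92 CS and 58 MM tags. The region 13.9 kb from Rbm47 (chr5:66165634-66166165) had none, against 73 CS and 33 MM tags. A further one inside Rilpl1 (chr5:124509847-124510246) had none, against 60 CS and 42 MM tags in wild type. Regions at a gene end were 6 of the 12 overlapping (50%, 21.1% to 78.9%) and 29 of the 109 absent (26.6%, 18.6% to 35.9%), and these intervals overlap. The limit of 1 kb was not tight: the farthest gene end counted lay 696 bp from a summit (Aptx), and the nearest left out were Lgals7 at 1262 bp and St6galnac5 at 1489 bp.

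Peaks that a single antibody found in wild type divided by antibody. The 59 CS peaks without an MM peak had a median of 33 tags; 1 (1.69%, 0.0429% to 9.09%) overlapped a knockout peak, and 58 (98.3%, 90.9% to 100%) lay in a shared region of wild type cells at 12 min of heat shock. At gene ends there were 3 of them, at Etnk2 (21 tags), Gcnt2 (49 tags) and Vwa1 (41 tags). The 328 MM peaks without a CS peak had a median of 11 tags; 17 (5.18%, 3.05% to 8.17%) overlapped a knockout peak, and 61 (18.6%, 14.5% to 23.2%) lay in a shared region at 12 min. The authors' false discovery rate was 100% for 308 of these 328 peaks and for 42 of the 59 CS peaks without an MM peak.

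The peaks found by MM alone lay at gene ends in 115 cases (35.1%, 29.9% to 40.5%), with 131 genes (0.606% of all protein-coding genes). Chaperone and ubiquitin genes among them were Dnajb1, a J-domain protein with peaks of 37 and 42 tags, the TRiC subunit genes Cct6a (46 tags), Cct8 (46 tags) and Tcp1 (32 tags), and Zfand2a (40 tags). The Hsp90 cochaperone genes were Ptges3 (34 tags), Nudc (25 tags) and Ppid (15 tags). Hspa4l, an Hsp110, had 23 tags, Clpp, a mitochondrial protease, 16, Bag2, an Hsp70 cochaperone, 15 and Dnajc3, a J-domain protein of the endoplasmic reticulum, 10. None of the peaks at these 12 genes overlapped a knockout peak. A separate knockout CS peak lay within 1 kb of an end of Ptges3 (7 tags) and of Cct8 (5 tags). Except at Dnajc3 and Clpp, the MM peaks at the 12 genes lay in shared regions of wild type cells at 12 and 60 min. The MM peaks at gene ends with the best fold had few tags, namely Rbbp5 (10), Mkrn3 (14), H3c3 (13), Lrp10 (20) and the pair H2ac4 and H3c2 (15), and none of them lay in a shared region at 12 or 60 min. The 59 MM-only peaks found at both later times had no knockout peak (0 of 59, which allows up to 6.06%) and a median of 20 tags. Among the 264 found at neither time, 17 (6.44%, 3.80% to 10.1%) overlapped a knockout peak, and the median was 10 tags.

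Heat shock gave a further view of the regions that the choice of members had not used. Wild type cells had 1412 shared regions at 12 min and 3455 at 60 min. Of the 109 absent regions, 108 (99.1%, 95% to 100%) lay in a shared region of wild type cells at 12 min, and 108 did at 60 min. Of the 12 overlapping regions, 11 (91.7%, 61.5% to 99.8%) did so at each time. Of the 970 unstressed knockout shared regions, 1 (0.103%) did at each time. All 35 wild type regions at gene ends were found again at both times. The absent region that was not found again lay inside Nap1l1 (chr10:111496384-111496584) and had 16 CS and 14 MM tags, and knockout peaks of 7 to 13 tags were called there after heat shock. The overlapping one (chr2:33933902-33934060) had a knockout MM peak of 10 tags, against 20 CS and 10 MM tags in wild type.

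**Figure D4:**
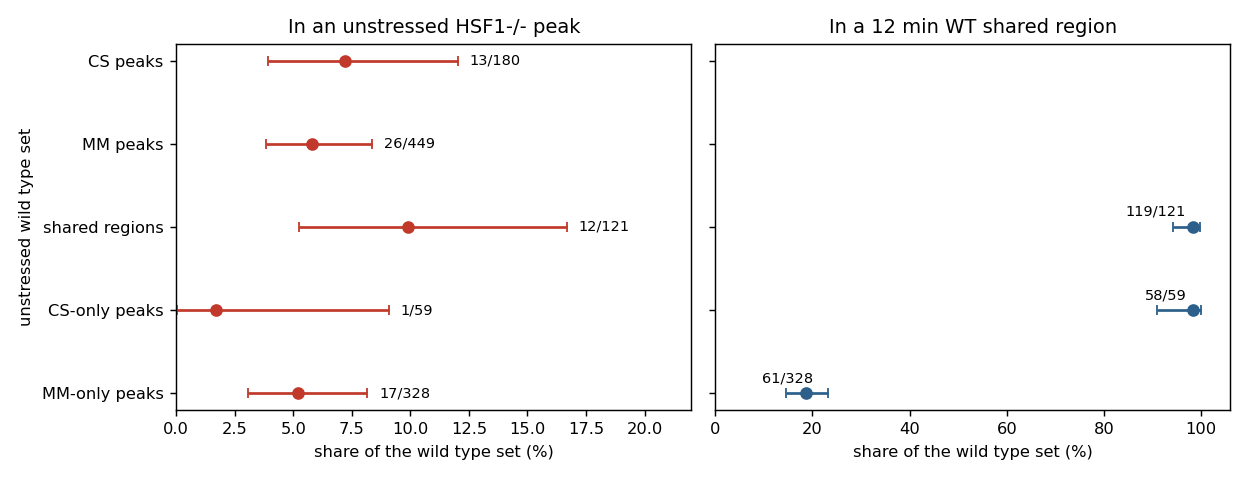
Share (horizontal axes, %, with exact 95% binomial intervals) of unstressed wild type peak sets that overlap an unstressed HSF1-/- peak of either antibody (left, red) or a shared region of wild type cells at 12 min of heat shock (right, blue; drawn for shared regions and single-antibody peaks). Shares on the left lie between 1.69% and 9.92%; on the right, 98.3% of shared regions and of CS-only peaks were found, against 18.6% of MM-only peaks.

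Knockout peaks were called without a control and wild type peaks against IgG, so genotype and calling cannot be told apart in what follows. The knockout lists also held a set of regions found by both antibodies. There were 970, with a median length of 119.5 bp and medians of 13 CS and 15 MM tags, and 966 of them (99.6%, 98.9% to 99.9%) overlapped no unstressed wild type peak. They recurred in the knockout, where 639 were found by both antibodies at all 3 times. At gene ends lay 41 (4.23%, 3.05% to 5.69%), with 38 genes. None of these genes lay at a wild type shared region, beside 0.199% of all protein-coding genes, a share at which 38 genes are too few to tell a difference. By mean fold rank the best at gene ends were at Rps29, a ribosomal protein gene (27 CS and 42 MM tags), Oasl1, an interferon-induced gene (57 and 74), Gzmk, a granzyme gene (17 and 15), and again Rps29 (25 and 24). The others of the best 10 were, in order of rank, at Lars2, the mitochondrial leucyl-tRNA synthetase (199 and 203), Mthfd1l (13 and 13), Asmt (18 and 21), Mt1, a metallothionein (10 and 14), Gcgr (12 and 7) and Naaa (9 and 14). Rps29 and Mt1 were the only genes of the lists with such a region.

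Heat shock element motifs were counted in promoters, from 250 bases before to 50 bases after each annotated start. The 2-unit motif is GAANNTTC or TTCNNGAA, and the 3-unit motif adds to either of them, after any 2 bases, a further GAA or TTC in the alternating order; both strands were searched. Every 3-unit match contains a 2-unit match. Of the 34 genes at absent regions, 25 had a promoter sequence, and 9 (36%, 18% to 57.5%) held the 2-unit motif, beside 15.9% of the 17274 protein-coding genes with one. The 3-unit motif was in 4 of the 25 (16%, 4.54% to 36.1%), beside 0.602% of all genes. These are Hsph1, Chordc1, Hnrnpa2b1 and Ccnd3, printed above. Of the genes at overlapping regions 4 of 7 held the 2-unit motif, and Hspd1 and Hspe1 held the 3-unit motif. The genes at knockout shared regions held the 2-unit motif in 4 of 34 (11.8%, 3.30% to 27.5%) and the 3-unit motif in none, which allows up to 10.3%. Counted over the promoter windows that the regions themselves overlap, 8 of 18 absent regions (44.4%, 21.5% to 69.2%) held the 2-unit motif and 4 (22.2%, 6.41% to 47.6%) the 3-unit motif, beside 13.8% and 0.523% of all 21045 windows. The units differ, since a region can overlap several windows and so has more sequence in which to hold a motif than a single window.

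Distances to a motif could be taken only where the promoter window under a region held one, and 16 of the 25 genes at absent regions held none. No distance for other windows was computed for comparison, and a window is short. Where a motif was present, the distance from the summit to the nearest match was 1 bp at Hsph1 and Adgra3, 2 bp at Chordc1, 12 bp at Hnrnpa2b1, 13 bp at Hspd1, 15 bp at Dnaja1 and 20 bp at Ccnd3. It was largest at Fkbp4 (46 bp) and Abcc5 (52 bp). The promoter of Aptx, the ninth of the genes with a motif, lay outside its region. Serpinh1, Stip1, Ahsa1 and Ubb held no 2-unit match in these windows. Promoter sequences of St13, Hspa8, Hsp90aa1, Hsp90ab1 and Cct4 were not used here.

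**Figure D5:**
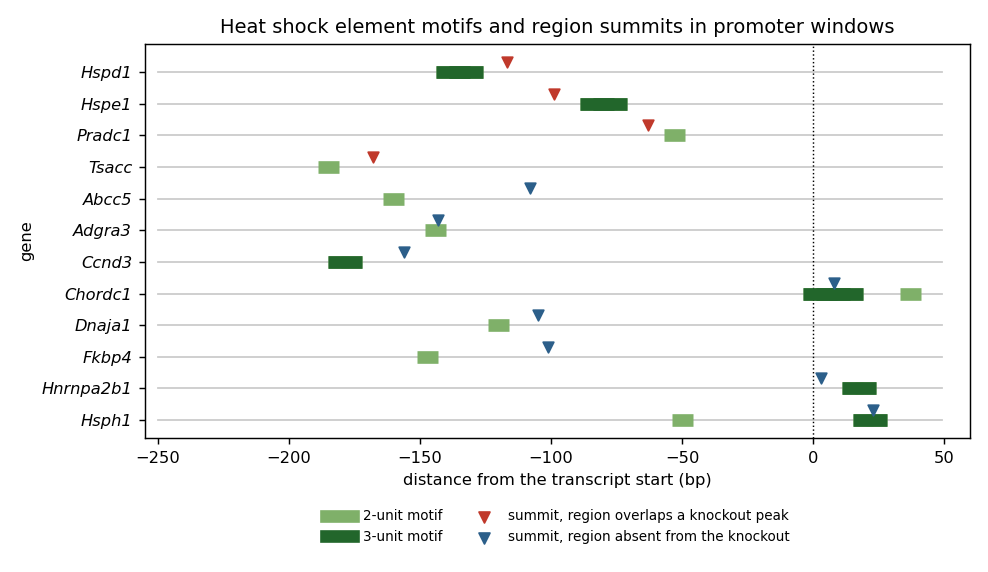
Positions of 2-unit (light green) and 3-unit (dark green) motifs in the promoter windows of genes at wild type shared regions, by distance from the transcript start (horizontal axis, bp); triangles mark the region summit, red where the region overlaps a knockout peak (top 4 rows) and blue where it does not. Hspd1 and Hspe1 share 1 region, and the distance from summit to nearest motif runs from 1 bp (Hsph1, Adgra3) to 52 bp (Abcc5).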

How the data were processed

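Peak tables as deposited by the authors were used, 1 for each genotype, antibody and time. Per the file headers, the caller was MACS 1.4.2 (p cutoff 1e-04), keeping at most 1 tag per position; the build is mm10 per the submitters' processing notes, and no aligner is named in what was used here. Wild type peaks came from a merge of 2 replicates and were called against IgG, per the file headers, while knockout peaks were called with no control, against a local background of up to 10000 bp, from files that name no merge. Each peak carries the authors' tag count, a score (10 × −log10 p), a fold enrichment (a ratio) and, for wild type, a false discovery rate in percent, all as deposited.

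From these, overlaps of at least 1 bp, gene positions and motif matches were computed with Python 3.11.15, pandas 2.3.3 and SciPy 1.17.1, and the overlap code was tested on simulated intervals. Intervals are exact Clopper-Pearson at 95%. Depth and number of peaks per list limit the precision; tags are not on one scale between lists. Genes are the 21631 protein-coding entries of the GRCm38.p6 table for chromosomes 1–19 and X, counted when an end or a promoter-table start lay within 1 kb of a summit; exon and intron positions were not used. The members and the gene lists were chosen with earlier results of these data known.

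Named genes were all those at overlapping regions, the 25 best absent regions at a gene end by mean CS and MM fold rank, all listed genes at shared regions, the best 5 (single antibody, and away from gene ends) or 10 (knockout), and those near a limit (1 region that this rule names is not reported here); listed genes at single-antibody or knockout peaks were added after their values were seen, as were Ccnd3 and Hnrnpa2b1 with Cbx3.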

Additional observations from a re-analysis of the deposited data

How the results depend on the processing

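Over 9 results and 41 alternatives, 23 values stayed within the main share's 95% interval or within 1.5 times the main count, and 18 did not. Of the wild type shared regions (90.1%), 100% were absent from knockout peaks with a p of 1e-10 or less and from knockout regions of both antibodies, 98.3% from knockout peaks of 10 or more tags, and 82.6% from knockout peaks of any of the 3 times. Wild type CS peaks (95%) were absent in 100% of cases against knockout peaks with a p of 1e-10 or less or with 10 or more tags, and in 87.5% when restricted to wild type peaks with a p of 1e-10 or less. For MM peaks (97.3%) the shares were 99.3%, 98.9% and 100% under these settings and 94.2% against knockout peaks of either antibody. Knockout shared regions (99.6%) were absent from wild type shared regions in 100%. Genes at absent regions (34) numbered 52 within 5 kb, 158 with MM alone and 14 with wild type peaks of a p of 1e-10 or less. Chaperone genes (12) numbered 23 with MM alone and 8 with wild type peaks of a p of 1e-10 or less. With promoter-table starts only there were 23 genes, 7 of them chaperone genes, an alternative chosen after seeing the data that leaves out genes with no promoter entry. The motif share (36%) was 16% for the 3-unit form. For these values the cause was not tested, beyond the fewer or more peaks and genes each setting takes. No paired analysis was possible because each group is 1 peak list. At the depth of the knockout libraries, a region with no called knockout peak is not shown to lack signal.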

Other observations

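Chosen after their values were seen, histone genes were looked up among the peaks found by MM alone in wild type cells. Of 70 histone genes, 3 (4.29%, beside 0.606% of all protein-coding genes) lay at such a peak. They rest on 2 peaks, since H2ac4 and H3c2 share one of 15 tags, and H3c3 lay at one of 13 tags. Neither peak overlapped a knockout peak or a shared region of wild type cells at 12 min, and none of the 70 genes lay at an unstressed wild type shared region.

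Among the knockout lists, Ccn1, an immediate early gene, had a CS peak of 25 tags within 1 kb, and Ier3 and Klf2 had CS peaks of 7 tags. These 3 are 13% of the 23 immediate early genes, beside 4.14% of all protein-coding genes with a knockout CS peak. Such peaks were not particular to this list. Larger shares were found for ribosomal protein genes (4 of 21), TRiC genes (3 of 8) and mitochondrial chaperone and protease genes (2 of 13). Each of the other lists had a smaller share or none. Whether any list differs from all genes was not tested. In wild type 0 of the 23 immediate early genes had an unstressed CS or MM peak within 1 kb. Over all genes the shares were 0.213% (CS) and 0.804% (MM), at which 23 genes are too few to tell a difference.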
